A study of Mus musculus with 16 samples.

Results

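The members described here are pairs of spliced gene models that lie on opposite strands of the mouse genome and share at least 50 nt of exon sequence. In the deposited assembly, 27521 gene models had at least 1 transcript with several exons, and 4903 opposite-strand pairs of them overlapped in span. Of these, 2902 pairs met the limit of 50 nt of exon overlap, built from 5430 gene models (19.7% of the spliced models). The limit cuts through a continuous range, with 104 pairs at 50 to 59 nt inside it and 81 pairs at 40 to 49 nt outside it. Samples of adult C57BL/6J mice from brain (whole brain, cerebellum, cortex, olfactory bulb) and from nonbrain organs (heart, kidney, liver, and an organ labelled testis) were profiled by RNA capture sequencing, in which cDNA libraries are hybridized to oligonucleotide probes before sequencing. Each of the 8 tissues was captured with 2 probe sets, one against lncRNA loci (the lncRNA design) and one against the flanks of known splice sites (the splice junction design, or junction design). There was 1 library for each tissue and probe set. For nonbrain organs, RNA of 2 pieces from the same mouse was pooled. No group was treated or mutated.

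RNA made from both strands of one locus is a common feature of mammalian genomes. Partners can start near each other and run apart (head to head), end into each other (tail to tail), or lie one inside the other (contained), and the overlap gives 2 transcripts that are complementary over the shared exons. Known examples include Tsix, which lies antisense to the X inactivation RNA Xist, and Kcnq1ot1, an imprinted RNA transcribed from within the potassium channel gene Kcnq1. In some pairs the antisense RNA silences its partner, in others both are transcribed in the same cells.

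Values are the normalized fragments that the authors' software assigned to the transcripts of a model, summed per model, and the libraries held 8930235 to 43889288 fragments. The tissue is the unit of replication (n = 4 brain and n = 4 nonbrain tissues), so that p-values measure the spread between tissues and not between mice. Whole brain takes in cerebellum, cortex and olfactory bulb, so the brain tissues are not fully independent units and the p-values may be too small. RNA extraction kit, hybridization pool and amplification differed between brain and nonbrain samples and cannot be told apart from the tissue difference. In the junction design, all 5 neuronal markers were highest in a brain tissue, 4 of 4 kidney and 4 of 4 liver markers in their own tissue, and 2 of 3 heart markers in heart. The remaining heart marker, Myh6, was listed at 0 in heart and had 9167 to 15014 fragments in the other nonbrain libraries, so that its 0 may be a value that was not estimated. The library labelled testis went against its label: 0 of the 3 detected germ cell markers were highest there, whereas 7 of 8 keratinocyte markers were. The library kit kept strand information, but whether alignment and counting used it is not given in the sources used here. Reads from shared exons may therefore not be separable between partners, and this touches every value below. Bulk tissue cannot tell fewer cells of a type from less RNA per cell.

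The 3 orientations were about equally common, with 978 head to head pairs (33.7%), 1048 tail to tail pairs (36.1%) and 876 contained pairs (30.2%). The median overlap was 234 nt (quartiles 117 and 511 nt, longest 5076 nt). Tail to tail overlaps were the longest, with a median of 340 nt, against 256 nt in contained pairs and 169 nt in head to head pairs. A single uninterrupted block made up the overlap in 1698 pairs (58.5%), most often in head to head pairs (71.6%) and least often in contained pairs (41.9%). The overlap covered a median of 15.8% of the exons of the shorter partner. Most models (5072) belonged to 1 pair, 342 to 2 pairs and 16 to 3 pairs.

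Orientation followed the kind of partner. Of 1434 pairs between a protein-coding and a lncRNA model, 622 were contained (43.4%), 494 head to head and 318 tail to tail, and in 571 of the 622 contained pairs (91.8%) the lncRNA model lay inside the coding one. Of 1134 pairs between coding models, 652 were tail to tail (57.5%), 362 head to head and 120 contained. Pairs took in 27.7% of spliced lncRNA models (1567 of 5657) and 19.4% of spliced coding models (3588 of 18483). In 479 pairs, at least 1 partner was a merged model that covered more than 1 GENCODE gene.

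**Figure D1:**
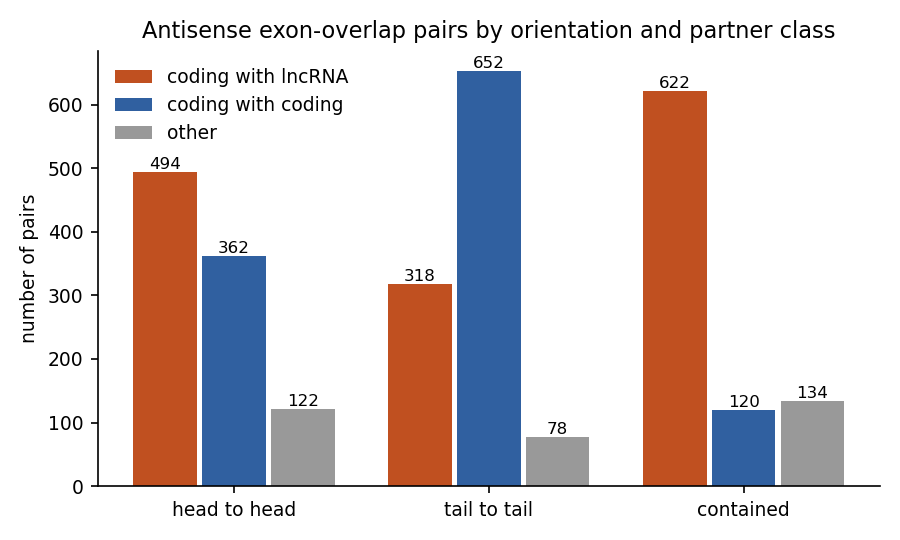
Number of antisense pairs (vertical axis) in each orientation (horizontal axis), for pairs of a coding with a lncRNA model, of 2 coding models and of other classes. Pairs of coding models were most often tail to tail (652 of 1134), and contained was the largest of the 3 orientations among pairs of a coding and a lncRNA model (622 of 1434).

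The base composition of the shared exons differed between orientations. The longest overlap block had a median GC content of 62.1% in head to head pairs, 53.1% in contained pairs and 47.4% in tail to tail pairs, beside 50.2% over the exon blocks of all spliced models. The observed over expected CpG ratio, which is low in most of the genome and high in CpG islands, had a median of 0.777 in head to head overlaps, 0.398 in contained overlaps and 0.276 in tail to tail overlaps, beside 0.337 in all exon blocks. It reached 0.6 in 71.0% of head to head overlaps, against 18.6% of all exon blocks.

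The first bases of head to head partners, whose start regions face each other, are shown for 2 pairs that stand for joint and for opposite expression below, with CG dinucleotides in capitals. They were rebuilt from GENCODE M21 transcripts on GRCm38 and are written 5′ to 3′ on the strand of each model, at chr5:71658073-71658102 (plus, Gabrb1), chr5:71658317-71658346 (minus, Gabra4), chr2:155517948-155517977 (plus, Acss2) and chr2:155518208-155518237 (minus, Ggt7). The windows held 1, 1, 2 and 4 CG dinucleotides, in that order.
Gabrb1: cCGcaccttgtcaagcttgcaagtgctgct
Gabra4: cCGgcaagtcctcaaacaacctatgagaaa
Acss2: ttcaCGcaCGgccctacccactattggatg
Ggt7: agagaggggaCGtgCGcCGagCGtctgacc

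Tail to tail partners each end within the span of the other, though not always within a shared exon. The polyadenylation signal AATAAA, or its common variant ATTAAA, was searched for on the strand of the model in its last 50 bases. It was found in 63.8% of tail to tail partners with known sequence (1247 of 1954), against 60.9% of all spliced models (13599 of 22326). Among coding models the shares were 68.1% of the tail to tail partners and 73.4% of all, and among lncRNA models 48.8% of the tail to tail partners and 39.0% of all. Both partners had a signal in 376 of 927 tail to tail pairs (40.6%).

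The ends of 3 tail to tail pairs with opposite expression are shown because both partners have a signal near their end, with the signal in capitals. Tmem54 and Hpca share 57 nt (chr4:129111570-129111626), B3gat1 and Glb1l2 58 nt (chr9:26763044-26763101), and Chdh and Cacna1d 518 nt (chr14:30039949-30040466). The windows lie at chr4:129111597-129111626 (plus, Tmem54), chr4:129111573-129111602 (minus, Hpca), chr9:26763072-26763101 (plus, B3gat1), chr9:26763044-26763073 (minus, Glb1l2), chr14:30040437-30040466 (plus, Chdh) and chr14:30039949-30039978 (minus, Cacna1d). Neither hexamer was found in the last 50 bases of Thra or of Nr1d1, a tail to tail pair described below.
Tmem54: ttgaagttATTAAAaagaaccaagatgctc
Hpca: cttcaaAATAAAgtcttgtttcagtgcatt
B3gat1: tttaagacaAATAAAaggctttttaaaaaa
Glb1l2: aaaatttaaAATAAAatcacttgataatta
Chdh: tttgcgaggtctttatAATAAAatttattt
Cacna1d: cctctcatttaatATTAAAtttctctttgt

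In 144 pairs the partners shared at least 1 intron with the same 2 ends on both strands, 170 introns in all. Splice sites are read on 1 strand, so an intron of this kind is not normally used by both. The 2 bases at each end could be read for 35 of these introns, and they matched a known donor and acceptor on the plus strand in 18, on the minus strand in 17 and on neither in 0. Gnas and Gm20721 shared the most, with 7 introns. The median correlation and the counts of calls are also given without the pairs that share an intron.

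Both partners had at least 10 fragments in 25.4% to 46.8% of the pairs in a library of the lncRNA design and in 31.9% to 55.4% in a library of the junction design. The share was highest in cerebellum (1358 pairs) and in whole brain (1607 pairs) and lowest in heart, which had 737 and 926 pairs and the fewest fragments of either design. Both partners reached that level in all 8 tissues in 554 pairs with the lncRNA design and 721 pairs with the junction design. Over the 8 tissues, and per kilobase of merged exons, the lesser partner contributed a median of 18.8% of a pair's summed value in the lncRNA design and 17.0% in the junction design, among pairs with a mean value of at least 10 for both partners.

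Partners more often followed each other over the tissues than opposed each other. In lncRNA libraries, 1691 pairs had a mean value of at least 10 for both partners, and the median Spearman's rho between partners over the 8 tissues was 0.48. The correlation was at least 0.5 in 820 pairs (48.5%) and at most -0.5 in 113 pairs (6.68%). In junction libraries, 1362 pairs had a median rho of 0.33, with 565 pairs (41.5%) at 0.5 or more and 185 (13.6%) at -0.5 or less. Scaling to the total without spike-ins gave shares of 56.5% and 5.73% in the junction libraries. The points of each correlation share libraries and depth, 4 of the 8 tissues are parts of brain, and no test was made.

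Pairs of a coding and a lncRNA model had the higher median, at 0.67 in the lncRNA design (814 pairs) and 0.69 in the junction design (427 pairs), against 0.21 (700 pairs) and 0.14 (885 pairs) for pairs of coding models. Among coding and lncRNA partners the median rho was higher at longer overlaps. It was 0.49 at 50 to 99 nt and 0.80 at 800 nt or more with the lncRNA design, and 0.58 and 0.77 at the same lengths with the junction design. Among coding partners it was 0.08 and 0.33 with the lncRNA design and 0.13 and 0.17 with the junction design. Pairs that shared an intron had medians of 0.76 (97 pairs) and 0.71 (49 pairs), and without them the medians of the remaining pairs were 0.45 and 0.31.

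Opposite-strand neighbours of 3 kinds were measured in the same way. Pairs whose spans overlap with under 50 nt of exons had a median rho of 0.36 in the lncRNA design and 0.33 in the junction design. Divergent neighbours within 1000 nt had 0.24 in both designs, and convergent neighbours within 1000 nt had 0.14 and 0.19. With splice junction probes the exon-overlap pairs and those that overlap with under 50 nt of exons had the same median to 2 decimals. The highest tissue was the same for both partners in 36.3% of the exon-overlap pairs with the lncRNA design, against 26.6%, 28.7% and 15.7% in those 3 sets.

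**Figure D2:**
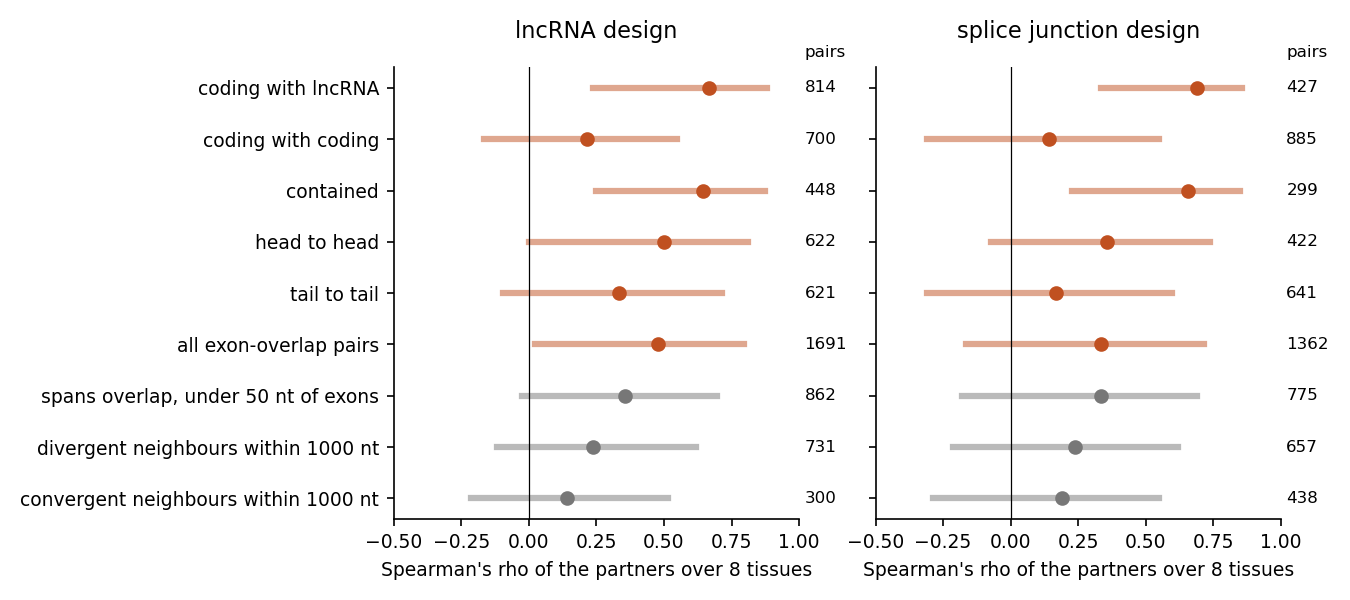
Median (points) and quartiles (bars) of Spearman's rho between partners over 8 tissues in each design, with the number of pairs at the right. Exon-overlap pairs are in orange and opposite-strand neighbours with little or no exon overlap in grey. Pairs of a coding and a lncRNA model had medians of 0.67 and 0.69, against 0.21 and 0.14 for pairs of coding models.

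Brain and nonbrain tissues were compared with limma on log2(value + 1) across all models. With the lncRNA design, 630 of 3949 member models tested were higher in brain at a limma adjusted p under 0.05 (16.0%, against 21.9% of all models tested) and 341 were lower (8.64%, against 5.25%). With the junction design, 715 of 3688 member models were higher (19.4%, against 21.6%) and 569 were lower (15.4%, against 15.9%). Members are spliced by rule, whereas the background also holds single-exon models, so these shares do not compare like with like. A fit limited to spliced transcripts called 2706 of 14767 as higher in brain and 1152 as lower with lncRNA probes. With junction probes it called 3303 of 15331 as higher and 2734 as lower. No member share is given for that fit. The median difference over all models was 0.49 on the log2 scale with the lncRNA design and 0.13 with the junction design. Over all models, 6298 were higher and 1511 lower with the lncRNA design, and 3728 were higher and 2737 lower with the junction design. Quantile normalization gave a median of -0.43 with 4452 higher and 4611 lower in the lncRNA design, and scaling to the total without spike-ins gave a median of 1.14 with 6627 higher and 1389 lower in the junction design. Directions below are those of the deposited scaling.

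In lncRNA libraries, both partners passed the test in 207 pairs, of which 137 were higher in brain for both, 58 lower for both and 12 opposite. In junction libraries, both passed in 212 pairs, with 86 higher, 84 lower and 42 opposite. The balance of directions depended on the scaling. Quantile normalization gave 95 pairs higher, 157 lower and 22 opposite in lncRNA libraries, and scaling to the total gave 225 higher, 35 lower and 25 opposite in junction libraries. Without the pairs that share an intron, the counts were 123 higher, 55 lower and 12 opposite in lncRNA libraries and 82, 79 and 41 in junction libraries. The partners moved the same way in 94.2% and 80.2% of the pairs with both called. In pairs whose spans overlap with under 50 nt of exons, that share was 93.0% and 80.9%. In the junction design 27 of 42 opposite pairs were tail to tail, an orientation that made up 641 of the 1362 pairs tested. Of the tail to tail pairs with both partners called, 66.3% moved the same way, against 87.7% of head to head and 89.6% of contained pairs. That share was 65.3% in pairs of coding models, which held 33 of the 42 opposite pairs. Such pairs were also 531 of the 641 tail to tail pairs, so that orientation was not separated from partner class. The share was 65.4% in convergent and 70.5% in divergent neighbours within 1000 nt. In the lncRNA design 4 of 12 opposite pairs were tail to tail, and 90.7% of the tail to tail pairs with both called moved the same way. These shares were not compared by a test. Leaving out a single brain tissue moved several counts. Without cortex, 26 pairs were lower for both partners and 3 opposite with the lncRNA design, and 56 were higher, 45 lower and 18 opposite with the junction design. Without cerebellum or olfactory bulb, the lncRNA design gave 31 and 29 lower and 5 and 4 opposite pairs, and the junction design 55 and 54 lower and 20 and 21 opposite pairs. Leaving out whole brain gave 21 opposite pairs and leaving out liver 28 in the junction design. Without the library labelled testis, the counts were 132 higher, 51 lower and 11 opposite, and 86, 84 and 39.

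Of 971 pairs tested in both designs, 40 were higher in brain for both partners in each design, 25 lower and 6 opposite. Taken singly, the lncRNA design had 53 of these pairs higher, 34 lower and 8 opposite, and the junction design 63, 54 and 33. Of the 8 pairs opposite in the lncRNA design, 0 moved in one direction in the junction design. Of the 33 pairs opposite in the junction design, 2 did so in the lncRNA design.

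**Figure D3:**
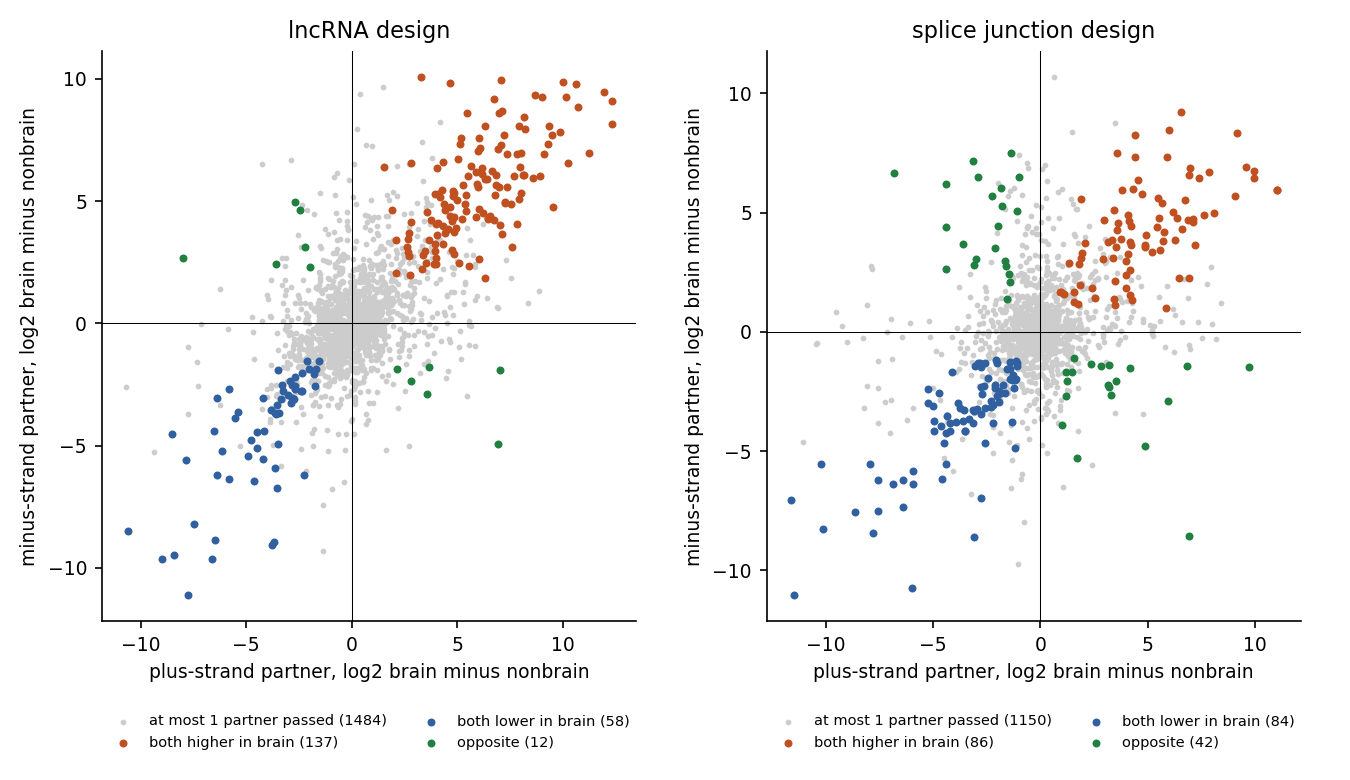
Difference between brain and nonbrain tissues (log2 of value + 1) for the plus-strand partner (horizontal axis) and the minus-strand partner (vertical axis) of each pair tested. Colours mark pairs in which both partners passed the test: 137 higher, 58 lower and 12 opposite with the lncRNA design, and 86, 84 and 42 with the splice junction design.

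The opposite pairs with the largest changes are given first. Hpca, which encodes the neuronal calcium sensor hippocalcin, ends in the last 57 nt of Tmem54, which encodes a membrane protein. With the junction design, Hpca had values of 389 in whole brain, 54.1 in cerebellum, 396 in cortex and 47.8 in olfactory bulb, against 0 in heart, 0 in kidney, 0.870 in liver and 1.07 in the library labelled testis. Tmem54 had 0, 0, 0.744 and 0.405 in the same order of brain tissues, against 38.5 in heart, 64.2 in kidney, 79.2 in liver and 2104 in the library labelled testis. Heart, kidney and liver held 1.83% to 3.76% of the Tmem54 value of the library labelled testis, which shared their hybridization pool, and the part of carry-over in these values was not tested. The groups did not overlap for either partner, and the log2 differences were 6.67 (SE 0.80, limma adjusted p = 0.000554) for Hpca and -6.85 (SE 1.16, limma adjusted p = 0.00277) for Tmem54. With the lncRNA design Tmem54 had 0 in all brain tissues, 53.6 in the library labelled testis and at most 3.15% of that in the other nonbrain tissues. Against a floor of 3 fragments per library, Tmem54 was at least 3.04-fold lower in brain in that design.

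Nrxn2 encodes a presynaptic neurexin, and the model of Slc22a12, the urate transporter of the kidney tubule, lies within it on the other strand with 669 nt of shared exons. In junction libraries Nrxn2 ranged from 210 to 328 in brain tissues, against 3.21 in heart, 3.34 in kidney and 0 in liver and in the library labelled testis. Slc22a12 ranged from 2.23 to 16.9 in brain tissues, against 1482 in heart, 67427 in kidney, 1777 in liver and 756 in the library labelled testis. Both passed, at 6.93 (SE 0.59, limma adjusted p = 9.24e-05) and -8.54 (SE 1.35, limma adjusted p = 0.00206). The other nonbrain libraries held 1.12% to 2.64% of the kidney value, and the part of carry-over between libraries of one hybridization pool in that was not tested. With the lncRNA design Slc22a12 had 0 in all brain tissues, against 4.77 in heart, 1438 in kidney, 12.9 in liver and 6.84 in the library labelled testis, and against a floor of 3 fragments per library it was at least 80.5-fold lower in brain. It passed there at limma adjusted p = 0.0421, but not when any single brain tissue was left out (0.0896 to 0.0933) nor without liver (0.0572). It was also lost with a pseudocount of 10 (log2 difference -2.42, limma adjusted p = 0.195), with limma-voom on fragments (0.153) and with spliced transcripts only (0.0517). It was not tested without kidney, on which the bound of 80.5-fold rests.

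Cacna1d encodes a voltage-gated calcium channel subunit and Chdh the choline dehydrogenase of mitochondria. In junction libraries Cacna1d had 1671, 3485, 3291 and 9402 in whole brain, cerebellum, cortex and olfactory bulb, against 201, 322, 144 and 96.5 in heart, kidney, liver and the library labelled testis. Chdh had 231, 187, 181 and 173 in those brain tissues, against 584, 13366, 10405 and 3519 in the nonbrain tissues. The groups of each gene were apart, and the log2 differences were 4.40 (SE 0.60, limma adjusted p = 0.00102) and -4.41 (SE 0.92, limma adjusted p = 0.00709). With the lncRNA design neither passed, at 2.69 for Cacna1d (limma adjusted p = 0.0995) and -3.10 for Chdh (limma adjusted p = 0.0946). The rho of the pair was -0.26 with the lncRNA design and -0.81 with the junction design.

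B3gat1, the glucuronyltransferase that makes the HNK-1 carbohydrate of neural cells, had 41.4, 14.2, 51.7 and 21.1 in the brain tissues and 0 in the nonbrain tissues with the junction design. Counted against a floor of 3 fragments per library, it was at least 11.6-fold higher in brain. Its tail to tail partner Glb1l2, a galactosidase-like gene, ranged from 32.7 to 155 in brain, against 496 in heart, 15844 in kidney, 629 in liver and 9735 in the library labelled testis (log2 difference -4.77, SE 1.23, limma adjusted p = 0.0173). Without cortex, Glb1l2 had a limma adjusted p of 0.0532. With the lncRNA design B3gat1 passed (log2 difference 5.49, limma adjusted p = 0.000235) but Glb1l2 did not (-2.96, limma adjusted p = 0.177). The rho of the pair was -0.42 with the lncRNA design and -0.91 with the junction design.

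Arfgef3 and Perp, a component of desmosomes in epithelia, start 92 nt into each other. In junction libraries Arfgef3 ranged from 6013 to 14594 in brain, against 30.5 to 517 in nonbrain tissues (log2 difference 6.19, limma adjusted p = 0.00187). Perp ranged from 110 to 199 in brain, against 2254 in heart, 1058 in kidney, 2137 in liver and 18735 in the library labelled testis (log2 difference -4.39, limma adjusted p = 0.00457). The Perp model also covers Gm32926. In the lncRNA libraries Perp overlapped between the groups and had a log2 difference of 0.12 (limma adjusted p = 0.939).

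In the lncRNA libraries the opposite pairs included Gpam and its antisense model. Gpam, the mitochondrial acyltransferase that begins glycerolipid synthesis, had 11400, 5783, 6046 and 8176 in whole brain, cerebellum, cortex and olfactory bulb, against 114097, 22792, 81018 and 46359 in heart, kidney, liver and the library labelled testis (log2 difference -2.89, SE 0.62, limma adjusted p = 0.00690). The lncRNA model AC110206.1 within it had 2411, 739, 2300 and 1286 in brain, against 281, 174, 20.6 and 262 in nonbrain tissues (log2 difference 3.55, SE 0.88, limma adjusted p = 0.0149; 0.0501 without cortex). In junction libraries Gpam differed by -2.07 (limma adjusted p = 0.0102), and by -1.03 (limma adjusted p = 0.116) when values were scaled to the total without spike-ins.

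Acot12, an acetyl-CoA hydrolase of liver and kidney, ranged from 5.61 to 16.6 in brain, against 95.4 in heart, 19328 in kidney, 19288 in liver and 1466 in the library labelled testis. Its head to head lncRNA partner 4833422C13Rik ranged from 13.1 to 44.2 in brain, against 1.69 to 5.70 in nonbrain tissues (log2 difference 2.66, limma adjusted p = 0.00785; 0.95 and 0.324 with quantile normalization). Its values in heart (4.77) and kidney (1.69) equal the value per fragment of those libraries. In the lncRNA design, 1 library held at least 10 fragments of both partners. Heart held 0.494% of the kidney value of Acot12, and the part of carry-over in that was not tested. Acss2, which makes acetyl-CoA from acetate, ranged from 894 to 2188 in brain, against 3902 to 18052 in nonbrain tissues (log2 difference -2.70, limma adjusted p = 0.0178; 0.0548 without olfactory bulb). Ggt7, a member of the gamma-glutamyltransferase family that starts within Acss2, ranged from 55.3 to 95.9 in brain, against 0 to 5.70 in nonbrain tissues (log2 difference 4.96, limma adjusted p = 0.00110).

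The calcium channel subunit model Cacnb4 (merged with the neighbouring Arl5a) and the lncRNA model A430018G15Rik shared 1433 nt. Cacnb4, in the lncRNA design, ranged from 53935 to 81606 in brain, against 1417 to 6174 in nonbrain tissues (log2 difference 4.66, limma adjusted p = 0.000280). A430018G15Rik ranged from 81.4 to 225 in brain, against 172 in heart and 701 to 1199 in the other nonbrain tissues, so that its groups overlapped (log2 difference -2.46, limma adjusted p = 0.0327). That call was lost without cerebellum, cortex, olfactory bulb, kidney, liver or the library labelled testis, with limma adjusted p of 0.0643 to 0.0972.

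**Figure D4:**
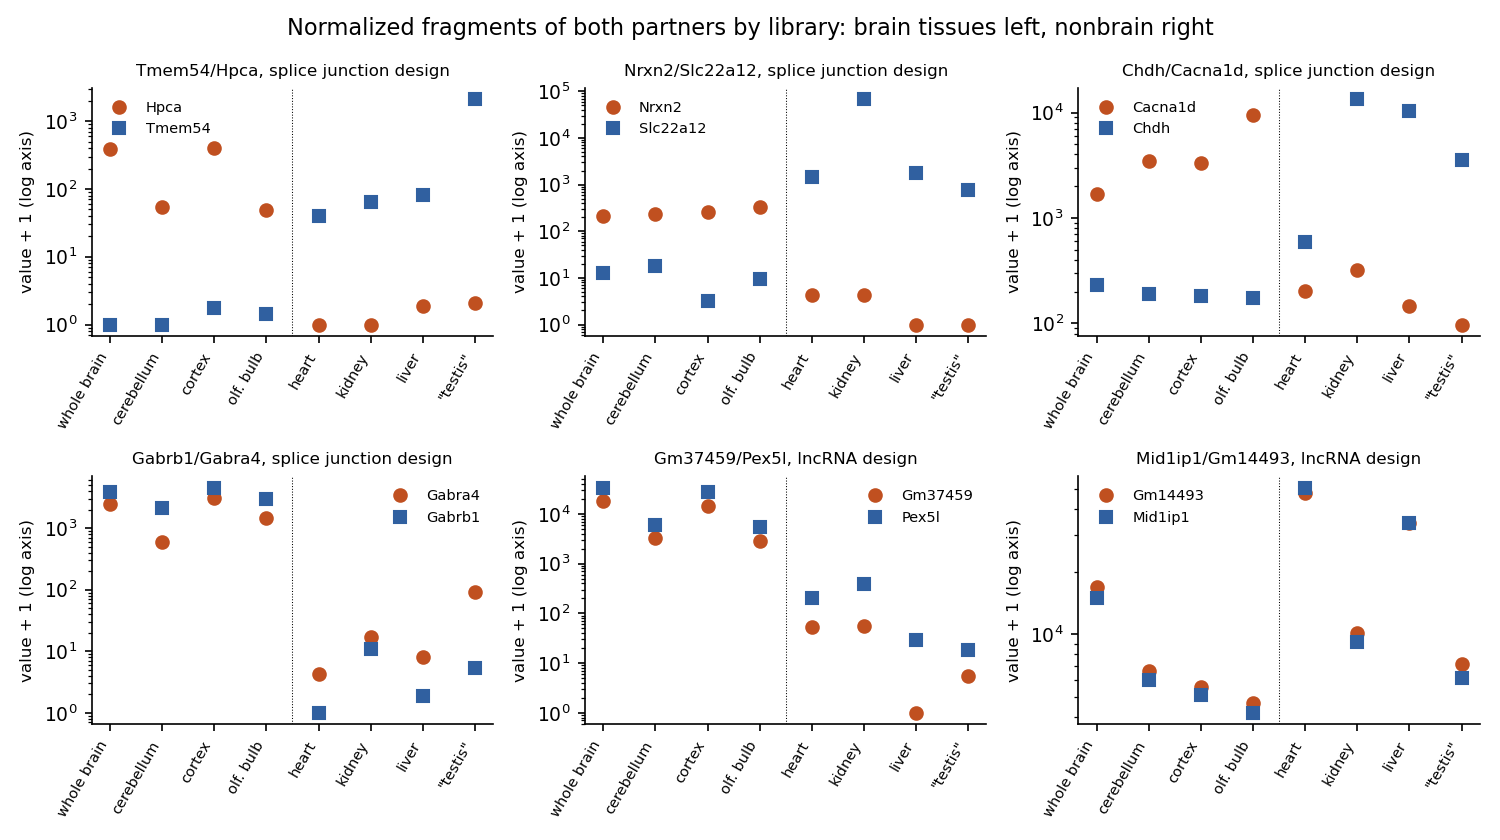
Normalized fragments plus 1 (vertical log axis) of both partners of 6 pairs in each library, with the 4 brain tissues left of the dotted line and the 4 nonbrain tissues right of it. In the upper 3 pairs the partners take opposite sides (Hpca 47.8 to 396 in brain and at most 1.07 in nonbrain tissues). In the lower 3 they follow each other, with a rho of 0.98, 0.98 and 1.00.

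Pairs higher in brain for both partners are described next. Gabrb1 and Gabra4 encode subunits of the GABA-A receptor, the main inhibitory receptor of brain, and their models share 124 nt at their starts. Gabrb1, in the junction design, had 3847, 2155, 4583 and 3004 in whole brain, cerebellum, cortex and olfactory bulb, against 0, 10.0, 0.870 and 4.27 in heart, kidney, liver and the library labelled testis. Gabra4 had 2482, 602, 3106 and 1473 in brain, against 3.21, 16.0, 6.96 and 92.2 in nonbrain tissues. Both were lowest in cerebellum among brain tissues in this design, and the log2 differences were 9.98 (SE 0.74, limma adjusted p = 4.19e-05) and 6.74 (SE 0.97, limma adjusted p = 0.00133). With the lncRNA design Gabra4 was again lowest in cerebellum (23.6), but Gabrb1 had 251 there, above cortex (191) and olfactory bulb (166). The Gabra4 model also covers Cox7b2, so that its level in the library labelled testis cannot be given to Gabra4 alone.

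Pex5l encodes a subunit that binds HCN channels of neurons, and the lncRNA model Gm37459 lies tail to tail with it and shares 340 nt. Pex5l, in the lncRNA design, had 34007, 6077, 27292 and 5433 in brain, against 205, 392, 28.3 and 17.1 in nonbrain tissues. Gm37459 had 18046, 3321, 14747 and 2888 in brain, against 52.5, 54.1, 0 and 4.56 in nonbrain tissues. Whole brain and cortex were high and cerebellum and olfactory bulb low for both, with a rho of 0.98 over the 8 tissues. The log2 differences were 7.35 (limma adjusted p = 0.00104) and 9.30 (limma adjusted p = 0.000742). Ddn, a postsynaptic protein of dendrites, and its head to head lncRNA model B130046B21Rik were also low together in cerebellum in the junction design. Ddn had 837, 16.1, 974 and 460 and B130046B21Rik 407, 16.1, 498 and 286 in whole brain, cerebellum, cortex and olfactory bulb, so that olfactory bulb was not low for this pair.

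Nkx2-2, a transcription factor of oligodendrocyte precursors, had 127, 89.3, 33.7 and 34.5 in brain tissues and 0 in nonbrain tissues with the lncRNA design. Against a floor of 3 fragments per library it was at least 9.33-fold higher in brain. Its head to head partner Nkx2-2os ranged from 768 to 1346 in brain, against 0 to 14.3 in nonbrain tissues (log2 difference 8.58, SE 0.87, limma adjusted p = 0.000109).

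Among pairs lower in brain for both partners, the same nonbrain tissue was highest for both in 42 of 58 pairs with the lncRNA design and 47 of 84 with the junction design, most often liver (21 and 23). How often liver was highest over all models lower in brain is not given, so these counts are not read as a trait of the pairs. Adh1, the alcohol dehydrogenase of liver, had 12.6 to 110 in brain with the lncRNA design, against 2695 in heart, 38253 in kidney, 174639 in liver and 33200 in the library labelled testis. Gm16559, which lies tail to tail with it and shares 308 nt, had 2.81 to 17.1 in brain, against 978, 8822, 25124 and 6499 in those tissues. The log2 differences were -9.01 (limma adjusted p = 0.000552) and -9.63 (limma adjusted p = 0.000114). Per kilobase, Adh1 stood at 2.18 to 5.49 times Gm16559 in the lncRNA design and at 51.3 to 64.4 times in the junction design, over libraries with at least 10 fragments of both.

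The ratio between contained partners was narrow over the libraries with at least 10 fragments of both in some pairs and wide in others, and the pairs given here were chosen after their values were seen. With lncRNA probes, Pcsk2 stood at 1.63 to 46.4 times Pcsk2os2 per kilobase, and A430018G15Rik at 0.00840 to 3.73 times Cacnb4. Abcb11, the bile salt export pump, had 0 to 2.76 in brain, against 134 in heart, 74.4 in kidney, 38043 in liver and 69.5 in the library labelled testis. Gm13613 within it had 0 to 1.96 in brain, against 85.9, 57.5, 23547 and 61.5. Gm13613 was 2.22 to 3.18 times Abcb11 per kilobase in the 4 nonbrain libraries, but heart, kidney and the library labelled testis held 0.183% to 0.351% of the liver value of Abcb11 and 0.244% to 0.365% of that of Gm13613. Whether they are independent of the liver library was not tested, so that the range may describe 1 tissue. With the junction design the ratio was 0.0417 to 0.0658. Both calls (log2 difference -8.19 and -7.50, limma adjusted p = 0.00936 and 0.0119) rest in part on the low values outside liver. With limma-voom on fragments the adjusted p was 0.117 for Abcb11 and 0.114 for Gm13613.

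Ckm, the creatine kinase of muscle, had 149839 in heart, and A930016O22Rik, a lncRNA model inside it, had 98952 there. In kidney, liver and the library labelled testis Ckm had 157, 389 and 260 and A930016O22Rik 149, 244 and 207. Brain tissues had 0 to 3.91 of Ckm and 8.29 to 54.7 of A930016O22Rik. Per kilobase, Ckm was 0.907 to 1.36 times A930016O22Rik with the lncRNA design and 42.4 to 68.6 times with the junction design, over the 4 nonbrain libraries in each. Kidney, liver and the library labelled testis held 0.105% to 0.259% of the heart value of Ckm in the lncRNA design. Brain libraries are not in these ranges because Ckm had under 10 fragments there. Mid1ip1, a regulator of lipid synthesis, and Gm14493 ranked the 8 tissues alike with the lncRNA design (rho 1.00). They had 14888 and 16798 in whole brain, 4189 and 4680 in olfactory bulb, and 50692 and 47668 in heart. Mid1ip1 stood at 0.498 to 0.619 times Gm14493 per kilobase in all 8 libraries of that design. The range was 0.529 to 1.52 times in the 8 libraries of the junction design. How far these ratios come from reads of shared exons was not tested.

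Malat1, a nuclear lncRNA of most cells, shared 988 nt with an unnamed antisense model. With the lncRNA design both were listed at 0 in cerebellum, olfactory bulb, kidney and the library labelled testis and at 314651 or more for Malat1 in the other 4, whereas with the junction design Malat1 had 385 to 2318 in all 8. The zeros are taken as values not estimated, and the rho of 1.00 of this pair in the lncRNA design is not read.

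Of 39 gene pairs listed from textbook knowledge, 16 were members. The list may hold pairs that are not antisense, so these counts give no share of known antisense pairs found. Thra, a thyroid hormone receptor, and Nr1d1, a repressor of the circadian clock, lie tail to tail and share 263 nt. Thra, in the lncRNA design, had 472, 185, 265 and 173 in brain, against 15.4 to 54.7 in nonbrain tissues (log2 difference 3.17, SE 0.58, limma adjusted p = 0.00315). Nr1d1 had 6377 to 9776 in brain, against 6562 to 18294 in nonbrain tissues, with overlapping groups (log2 difference -0.33, SE 0.51, limma adjusted p = 0.682). Their rho was 0.10.

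Kcnq1, a potassium channel of heart and epithelia, had at most 34.5 in brain with the lncRNA design, against 4303 in heart, 1529 in kidney, 216 in liver and 86.6 in the library labelled testis (log2 difference -4.71, SE 1.13, limma adjusted p = 0.0127). This model also covers Gm38321. Kcnq1ot1 had 7592 in whole brain and 34035 to 42628 in the other brain tissues, against 17824 to 29960 in nonbrain tissues (log2 difference 0.26, limma adjusted p = 0.802). Uchl1, a ubiquitin hydrolase abundant in neurons, had 3176, 295, 1611 and 575 in brain, against 153, 86.2, 2.57 and 1.14 in nonbrain tissues (log2 difference 5.76, limma adjusted p = 0.0168; 0.0565 without whole brain and 0.0509 without cortex). Its antisense partner Uchl1os had 50.9, 7.88, 33.7 and 4.15 in brain, against 4.77, 5.07, 0 and 0 in nonbrain tissues (log2 difference 2.80, limma adjusted p = 0.0596).

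Emx2, a transcription factor of forebrain and urogenital development, and Emx2os followed each other (rho 0.84), with 270 and 4706 in kidney, 27.4 and 1790 in whole brain, and 0 and 10.5 in cerebellum. Neither passed the test between brain and nonbrain tissues (limma adjusted p = 0.975 and 0.633). Zfas1, a host of small nucleolar RNAs, had 5734 to 17675 in brain, against 8555 to 30786 in nonbrain tissues, and its head to head partner Znfx1 had 3039 to 8558 in brain, against 7184 to 13954 in nonbrain tissues (limma adjusted p = 0.765 and 0.143). Their rho was -0.10, and the Zfas1 model also covers Gm27494.

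Within the junction design, the 3 lowest correlations of named pairs were found in tail to tail pairs of coding models. Such pairs were 531 of the 1362 pairs measured. Cbarp, a regulator of neuronal calcium channels, and the kinase gene Stk11 had a rho of -0.97. Cbarp ranged from 26.5 to 73.6 in brain, against 0 to 9.60 in nonbrain tissues (log2 difference 4.11, limma adjusted p = 0.00547), and Stk11 from 274 to 361 in brain, against 401 to 784 in nonbrain tissues (log2 difference -0.74, limma adjusted p = 0.112). Krr1 with Glipr1 and Plcg1 with Zhx3 had a rho of -0.95 each. Pfkp, the platelet-type phosphofructokinase, and the mitochondrial protease gene Pitrm1 were among the lowest with the lncRNA design (rho -0.88) and had -0.76 with the junction design. Dnaja1 and Gm6297 had a rho of -0.90 with the lncRNA design and -0.64 with the junction design. Cul5 and Gm16124 had -0.88 with the lncRNA design. Both of these are head to head pairs of a coding and a lncRNA model.

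The 2 designs were compared within tissues. Coding models that overlap a lncRNA model had a median difference of -1.21 on the log2 scale, lncRNA design minus junction design, and 411 of 1265 (32.5%) were higher with the lncRNA design, against 27.5% of all coding models tested. Coding models in no pair had a median of -2.82, and coding models paired only with coding models -2.65. Among the coding partners of lncRNA models the difference moved with the length of overlap, with medians of -2.05 at 50 to 99 nt, -1.92 at 100 to 199 nt, -1.26 at 200 to 399 nt, -0.36 at 400 to 799 nt and 0.77 at 800 nt or more. Among coding models paired only with coding models the medians were -2.95, -2.84, -2.50, -2.53 and -2.36 at the same lengths. The lncRNA partners had a median of 4.44, beside 4.08 over all lncRNA models tested. How many probes fall on the shared exons was not tested.

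**Figure D5:**
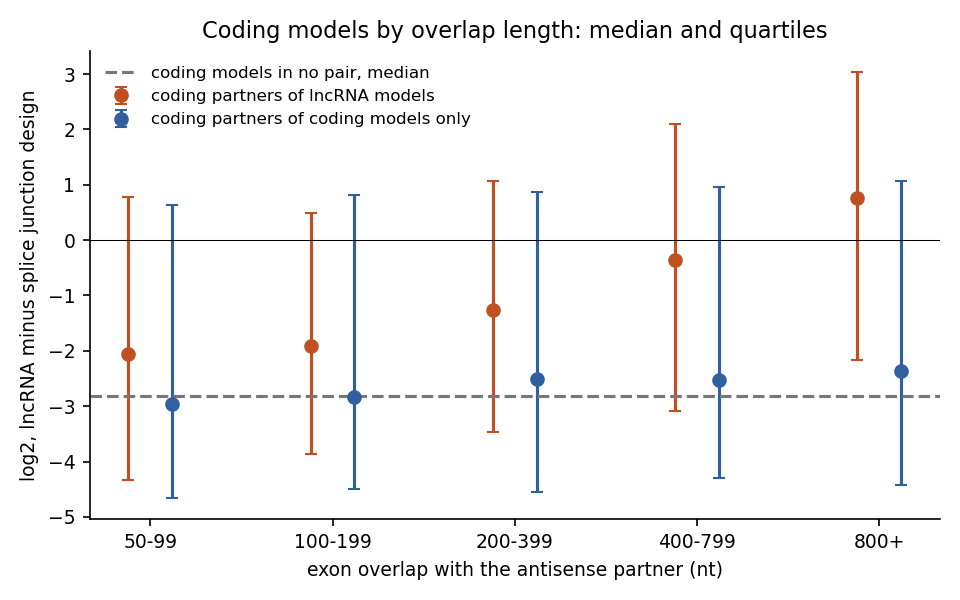
Median (points) and quartiles (bars) of the log2 difference between designs for coding models, by length of exon overlap with a lncRNA partner or with a coding partner. The dashed line is the median of coding models in no pair (-2.82). Coding partners of lncRNA models lie at -2.05 for the shortest overlaps and at 0.77 for the longest.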

How the data were processed

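RNA of 8 tissues was captured with 2 designs, with 1 library each. Per the labels, the authors aligned reads to GRCm38 with TopHat2 and assembled them with Cufflinks 2.2.1, guided by GENCODE, and merged the 16 assemblies. The signal deposited is the fragments that Cuffnorm 2.2.1 estimated per transcript, scaled between libraries by the authors. They were summed per gene model. Sums up to 20 times a library's smallest step were whole multiples of it to within 0.1 step, which gave fragments. Models were named from GENCODE M21 by exon overlap on the same strand (at least 100 nt for further genes). Exon sequence was rebuilt from its transcripts. Models with a mean of at least 10 within a design were tested with limma 3.58.1 (R 4.3.3) on log2(value + 1), with Benjamini-Hochberg adjustment over all models tested and a threshold of 0.05. Between designs, tissue was a factor. The fits were tested on simulated data. Python 3.11.15 did the rest. In all, 0 per-sample columns were left unused.

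Pairs named are those on a list of known pairs, the 3 with the longest overlap per orientation, the 5 with the largest smaller change per direction and design, and the 3 with the lowest rho or highest lesser partner. The members, lists and tests were chosen with earlier results of these data known. Alternatives are another pseudocount, filters, normalizations, a variance trend, spliced transcripts, other overlap limits and leaving out each tissue.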

Additional observations from a re-analysis of the deposited data

Results flagged for a closer look

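Of 86 groups of 4 tissues examined, 11 held a tissue far from the other 3, where chance flags about 1 in 20. Values are log2(value + 1) unless stated. In the lncRNA design, heart stood high among nonbrain tissues for Ckm (17.19) and A930016O22Rik (16.59), liver for Abcb11 (15.22) and Gm13613 (14.52), and the library labelled testis for Zfas1 (14.91). Among brain tissues, cerebellum stood low for 4833422C13Rik (3.82) and Emx2os (3.52), and whole brain for Kcnq1ot1 (12.89). In the splice junction design, cerebellum stood low among brain tissues for B130046B21Rik (4.10) and liver low among nonbrain tissues for Pfkp (6.60). The share of fragments on member models was 24.0% in cerebellum of the splice junction design, above the other brain tissues (22.9% to 23.0%).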

How the results depend on the processing

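No paired analysis was possible because the replicate numbers of brain and nonbrain samples only name different tissues. The fit between designs had tissue as a factor. An overlap of at least 200 nt left 1611 pairs (413 head to head, 692 tail to tail and 506 contained), with 80 higher, 36 lower and 4 opposite pairs in the lncRNA design and 45, 46 and 20 in the junction design. With each model in its longest pair only, 7 were opposite in the lncRNA design. A mean of at least 50 gave 91 pairs higher in the lncRNA design and 31 in the junction design, where no filter gave 161. Quantile normalization gave 95 higher, 157 lower and 22 opposite pairs in the lncRNA design. Scaling to the total without spike-ins gave 225 higher, 35 lower and 25 opposite pairs in the junction design. Leaving out each tissue gave 101 to 154 higher, 26 to 64 lower and 3 to 14 opposite pairs in the lncRNA design, and 56 to 110, 45 to 90 and 18 to 51 in the junction design. Besides cortex, leaving out cerebellum or olfactory bulb moved the lower pairs to 31 and 29 and the opposite pairs to 5 and 4 in the lncRNA design, and to 55 and 54 and to 20 and 21 in the junction design, where the opposite pairs were 21 without whole brain. The causes of these shifts were not tested.

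Shares of pairs moved as well. The correlation was at least 0.5 in 56.9% of lncRNA pairs and 36.7% of junction pairs with a mean of at least 50, and in 52.4% and 56.5% with scaling to the total. It was at most -0.5 in 16.3% of junction pairs with a mean of at least 50, in 5.02% of lncRNA pairs and 5.73% of junction pairs with scaling to the total, and in 8.14% of lncRNA pairs without the library labelled testis. Coding partners of lncRNA models higher in the lncRNA design were 18.4% with quantile normalization and 22.6% with scaling to the total, beside 14.1% and 16.8% of all coding models. Of 3350 values of named models under all settings, 115 lost and 51 gained a call, and 0 reversed. With 1 library per tissue, depth limits low values such as those of Tmem54 in brain.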

Other observations

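Of 3071 member models tested in both designs, 624 passed the test in both, and 2 of them took opposite directions. The same counts over all models are not given, so these are not read as a trait of members. Hsd17b7, an enzyme of cholesterol and steroid synthesis, had a log2 difference of 4.98 between brain and nonbrain tissues with the lncRNA design (limma adjusted p = 0.00130) and -1.41 with the junction design (limma adjusted p = 0.0325). Clybl, a mitochondrial enzyme, had 2.83 (limma adjusted p = 0.0157) and -1.78 (limma adjusted p = 0.0255). The difference between designs was not tested for either.

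The longest overlap of all was that of Tshz2 and Gm26883, with 5076 nt. Among head to head pairs the longest overlap was 3553 nt. The potassium channel gene Kcna6 and Gm26673, also head to head, shared 2863 nt and were both higher in brain with the lncRNA design. Kcna6 had a log2 difference of 5.64 (limma adjusted p = 0.00196) and Gm26673 of 6.83 (limma adjusted p = 0.00515). Among tail to tail pairs, Nr2c2 and Mrps25 shared 3550 nt, with a rho of 0.90 over the 8 tissues in the lncRNA design and -0.17 in the junction design.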
